A study of Homo sapiens with 15 samples.

Results

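The miR-146 family consists of 2 human hairpins, MIR146A and MIR146B, whose mature arms were taken from the counts by name: every miRNA whose name starts with hsa-miR-146a- or hsa-miR-146b-. The rule gave 4 members of the 2424 miRNAs listed in all: hsa-miR-146a-5p, hsa-miR-146a-3p, hsa-miR-146b-5p and hsa-miR-146b-3p. All 4 were counted in the knockdown libraries, and 3 of them in the immunoprecipitation libraries, where hsa-miR-146a-5p was not analysed here. The family was selected on a measured value, the enrichment of miR-146b-5p by the anti-m6A antibody over IgG, so that contrast and those sharing its libraries are given as descriptions without a test. Transcription of both hairpins is known to be induced through NF-kB after stimulation of Toll-like and cytokine receptors. Their 5p arms are the guide strands and lower the adaptor proteins TRAF6 and IRAK1 of the same pathway, so that the family acts as a feedback brake on innate immune signalling. The 3p arms are the passenger strands, which are usually degraded when the guide is loaded into an Argonaute protein.

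Small RNA came from FTO1C1, FTO2D4 and FTO3C3, uninduced derivatives of HEK293, a human embryonic kidney line, made with the Flp-In and T-Rex systems for inducible transgenes, with 1 library of each in every group and 15 libraries in all. In the knockdown experiment the cells received 10 nM of scrambled siRNA or of siRNA against FTO, an m6A demethylase, and were harvested after 48 h. In the RIP-seq experiment small RNA of untreated cells was sequenced directly (input) or after precipitation with an anti-m6A antibody (m6A) or with IgG, the control for unspecific binding. N6-methyladenosine (m6A) is an adenosine with a methyl group on its base amine. The derivatives share 1 parent line, so the spread between them covers HEK293 only.

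The mature sequences are shown first because both 5p arms share their first bases, seed included, and because the arms of 1 hairpin are described side by side below. They are from RefSeq (GRCh38.p14), 5′ to 3′, with the seed (bases 2 to 8, which pairs with target mRNAs) in capitals.
hsa-miR-146a-5p: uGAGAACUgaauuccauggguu
hsa-miR-146b-5p: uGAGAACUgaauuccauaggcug
hsa-miR-7153-5p: uGAGAACUgacaaaugugguagg
hsa-miR-146a-3p: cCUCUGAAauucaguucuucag
hsa-miR-146b-3p: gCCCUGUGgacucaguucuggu

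MIR146A lies on chromosome 5 (160485352-160485450, plus strand), with its 5p arm at 160485372-160485393 and its 3p arm at 160485408-160485429. MIR146B lies on chromosome 10 (102436512-102436584, plus strand), with its arms at 102436520-102436542 and 102436557-102436578. The 5p arms were identical over their first 17 bases and at 20 of 22 aligned positions, with the differences G18A and U21C, counted from the 5′ end with the miR-146a base first. The authors required 17 matching bases, so a read that ends within the shared stretch cannot be assigned to 1 of the 2 genes, and the low counts of miR-146a-5p are uncertain for this reason. The 3p arms were identical at 6 of 22 positions. Of 2370 mature miRNAs in the table of sequences, 3 carried the seed GAGAACU, the third being hsa-miR-7153-5p of MIR7153 on chromosome 18 (11654919-11654941, minus strand), which differed from miR-146a-5p at 9 of the 14 positions after the seed. The seeds of the 3p arms occurred in no other miRNA of the table.

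Levels are reads per 1000000 miRNA reads of the library (RPM). The knockdown libraries held between 1991317 and 3876806 reads on miRNAs, the input libraries between 1408702 and 1500357, the m6A libraries between 569501 and 4973238 and the IgG libraries between 186446 and 786688. In the IgG library of FTO3C3, the shallowest, 1 read was worth 5.36 RPM. hsa-miR-6080 took 58.0% to 71.6% of the IgG reads, 41.3% to 47.8% of the m6A reads and 15.5% to 28.4% of the input reads, and it was listed with the same count of 563404 reads in the m6A and the IgG library of FTO2D4, so the ratios of RPM below are also given with totals that leave it out. The counts hold miRNAs alone, so neither the FTO mRNA nor the embryonic kidney origin could be checked from them. The study itself reported a partial knockdown of FTO, measured by qRT-PCR and Western blot. Since miR-146a is abundant in immune cells, 7 miRNAs of blood and immune cells were summed, and all 7 had reads, with miR-142-3p at a count of 0 in an IgG library. They reached 101 to 124 RPM with scrambled siRNA, 129 to 172 with FTO siRNA, 490 to 919 in the input, 117 to 150 in the IgG and 922 to 2107 in the m6A libraries, and their part in the results was not tested. In the input and m6A libraries most of the sum was miR-223-3p, at 584 ± 214 and 1125 ± 632 RPM (SD, n = 3 cell lines).

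In the knockdown experiment miR-146b-5p was the leading arm, at 743 ± 45.6 RPM with scrambled siRNA and 798 ± 262 RPM with FTO siRNA (SD, n = 3 cell lines), the 108th and 120th most abundant of 2418 miRNAs. The other arms lay far below it and none of the 4 was called after FTO knockdown, where 5.48% of all tested miRNAs were (130 of 2374, adjusted p under 0.05 by edgeR). An unadjusted p under 0.05 was reached by 0 of the 4 with edgeR, beside 621 of all 2374 tested, and by 0 with DESeq2, beside 202 of 2418. Of the 4, DESeq2 gave an adjusted p for miR-146b-5p alone. The ranges of the scrambled and FTO siRNA libraries overlapped for all 4 arms, whereas they did not overlap for 28.2% of the listed miRNAs. Because tested miRNAs as a whole had a median of 0.29 (log2 fold change) on this scale, and of -0.00035 with TMM factors, small fold changes have no fixed sign.

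The guide strand miR-146b-5p had 717, 796 and 717 RPM with scrambled siRNA in FTO1C1, FTO2D4 and FTO3C3, from 2607, 1961 and 1428 reads. With FTO siRNA it had 610, 687 and 1097 RPM, from 2123, 2379 and 4253 reads. Thus the FTO siRNA libraries of FTO1C1 and FTO2D4 lay below all 3 scrambled siRNA libraries, and that of FTO3C3 lay above them. The ratios were 0.851, 0.863 and 1.53, and the log2 fold change of 0.05 (standard error 0.19, 95% interval -0.37 to 0.48) was smaller than its error (Benjamini-Hochberg adjusted p = 0.874, quasi-likelihood F test of edgeR). FTO3C3 decided the sign, since the log2 fold change was -0.22 without it, 0.20 without FTO1C1 and 0.19 without FTO2D4, and it was also -0.24 with TMM factors and with DESeq2.

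The passenger strand miR-146b-3p varied little in RPM, at 29.4, 27.2 and 28.6 RPM under scrambled siRNA and at 29.6, 29.5 and 24.8 RPM under FTO siRNA. All 6 libraries lay within 24.8 to 29.6 RPM, from 57 to 107 reads. Its log2 fold change was -0.03 (standard error 0.19, 95% interval -0.44 to 0.39, adjusted p = 0.948 by edgeR), and 0.06 without FTO3C3. With TMM factors it was -0.32 (standard error 0.17, adjusted p = 0.387 by edgeR), and -0.32 with DESeq2, the most negative value of the 4 arms under both.

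Both arms of MIR146A were scarce. miR-146a-5p, the arm known as the guide, gave 14, 6 and 20 reads under scrambled siRNA (3.85, 2.44 and 10.04 RPM), against 22, 14 and 29 under FTO siRNA (6.32, 4.04 and 7.48 RPM). It was higher after knockdown in FTO1C1 and FTO2D4 and lower in FTO3C3, with ratios of 1.64, 1.66 and 0.745. The log2 fold change was 0.23 (standard error 0.34, 95% interval -0.53 to 0.98, adjusted p = 0.691 by edgeR), but -0.04 with TMM factors and -0.03 without FTO1C1, so no direction can be given at this depth. Without FTO3C3 the value was 0.71 (adjusted p = 0.219 by edgeR).

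For the passenger strand miR-146a-3p, 27, 27 and 45 reads were counted under scrambled siRNA, against 33, 65 and 76 under FTO siRNA. This corresponds to 7.42, 10.96 and 22.6 RPM against 9.48, 18.8 and 19.6 RPM, with the FTO1C1 libraries lowest in both groups. The log2 fold change was 0.28 (standard error 0.24, 95% interval -0.27 to 0.82, adjusted p = 0.484 by edgeR), close to the median of all miRNAs, and it was -0.0028 with TMM factors and 0.58 without FTO3C3 (adjusted p = 0.19 by edgeR).

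**Figure D1:**
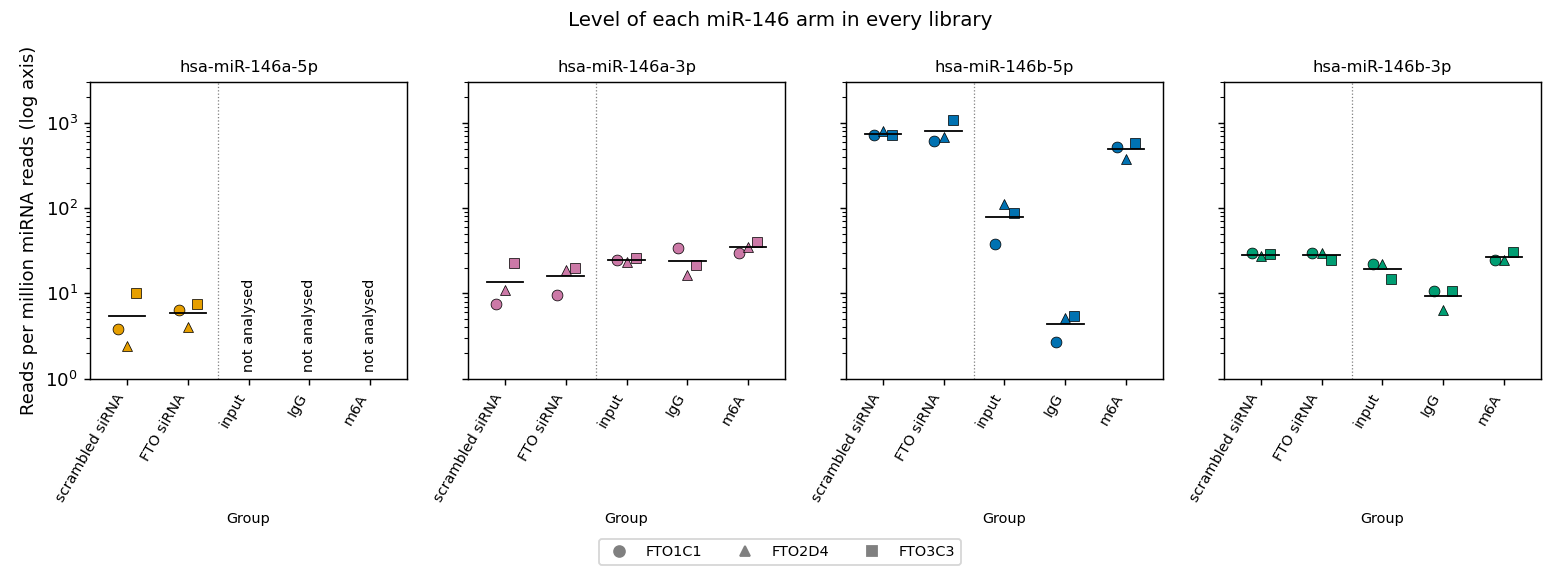
Level of each miR-146 arm in RPM (log axis) in the 5 groups, with 1 point per library, a symbol per cell line and a line at the mean of 3. miR-146b-5p lies between 610 and 1097 RPM in the knockdown libraries and between 2.70 and 5.36 RPM in the IgG libraries, while miR-146b-3p stays between 6.36 and 30.4 RPM throughout. The dotted line separates the 2 experiments, which were counted in separate tables.

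The balance between the arms does not depend on the library totals, since it is a ratio of 2 counts of the same library. Of the miR-146b reads, 96.1%, 96.7% and 96.2% were on the 5p arm with scrambled siRNA in FTO1C1, FTO2D4 and FTO3C3, and 95.4%, 95.9% and 97.8% with FTO siRNA. The mean share was 96.3% ± 0.343 and 96.4% ± 1.27 (SD, n = 3), a difference of 0.046 percentage points (two-sided exact permutation test, p = 1.0, smallest possible p = 0.1). Thus the guide had 24.4 to 29.3 reads per passenger read with scrambled siRNA and 20.6 to 44.3 with FTO siRNA.

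MIR146A showed another balance, with 34.1%, 18.2% and 30.8% of its reads on the 5p arm under scrambled siRNA and 40.0%, 17.7% and 27.6% under FTO siRNA, so that the arm known as the passenger held most reads in all 6 libraries. These shares rest on 33 to 105 reads per library. They also carry the uncertainty of the miR-146a-5p counts, since its first bases are shared with the far more abundant miR-146b-5p. Of all 5p reads of the family, miR-146a-5p gave 0.740% ± 0.567 with scrambled siRNA and 0.763% ± 0.232 with FTO siRNA, a difference of 0.023 percentage points (two-sided exact permutation test, p = 0.9). Reads of the 2 hairpins were nearer to each other on the 3p side, where miR-146a-3p gave 20.1% to 44.1% under scrambled siRNA and 24.3% to 44.2% under FTO siRNA.

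**Figure D2:**
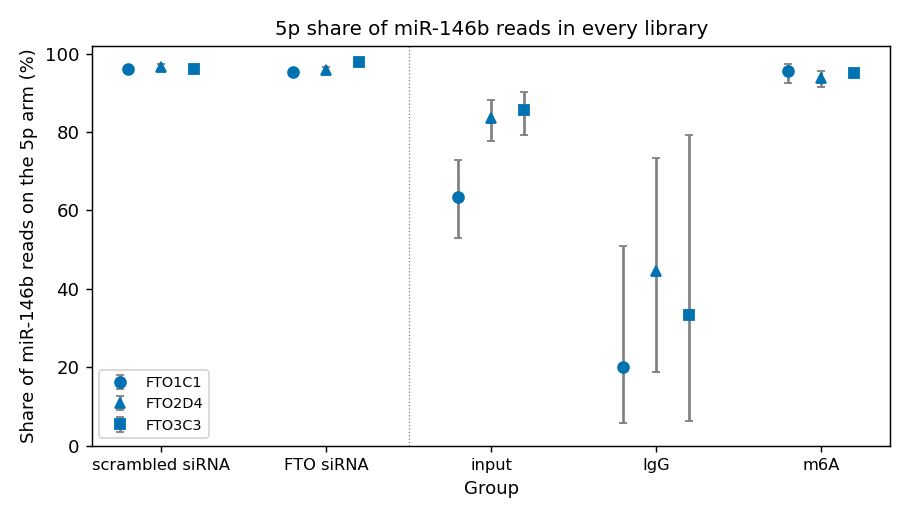
Share of miR-146b reads on the 5p arm (%), 1 point per library with its 95% Wilson interval, by group and cell line. The share is 93.8% to 97.8% in the knockdown and m6A libraries, 63.5% to 85.6% in the input and 20% to 44.4% in the IgG libraries, where it rests on 3 to 10 reads.

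In the RIP-seq libraries the arms of MIR146B went apart. miR-146b-5p was high after precipitation with the anti-m6A antibody, at 525, 378 and 575 RPM in FTO1C1, FTO2D4 and FTO3C3, from 299, 515 and 2862 reads. In the IgG libraries it had 2.70, 5.08 and 5.36 RPM, from 2, 4 and 1 reads. The 3 m6A libraries lay far above the 3 IgG libraries. The m6A to IgG ratios were 195 (counting interval 53.4 to 1615), 74.3 (28.9 to 274) and 107 (19.2 to 4239), with a mean of 125 ± 62.2 (SD, n = 3 cell lines) that ranked 9th of 2189 miRNAs, and the fitted log2 ratio was 6.78 (standard error 0.44). The rank can depend on how IgG counts of 0 of other miRNAs are treated, here as 3 reads. In the study's own list miR-146b-5p stands somewhat lower, at the same mean. The mean was 82.5 with totals that leave out miR-6080 and 76.3 with TMM factors, so its size depends on the scale. The intervals are exact binomial ones at 95% and, as for all shares here, cover counting error only, since PCR reads carry no molecular identifiers.

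miR-146b-3p, from the other side of the same hairpin, had 24.6, 24.9 and 30.4 RPM in the m6A libraries and 10.8, 6.36 and 10.7 RPM in the IgG libraries, the latter from 8, 5 and 2 reads. The m6A libraries were again all higher, but the ratios were only 2.28 (counting interval 0.892 to 6.27), 3.93 (1.53 to 12.9) and 2.83 (0.77 to 23.6), and the log2 fold change of 1.55 (standard error 0.47) stands beside a median of 0.83 over 2054 miRNAs. Without miR-6080 in the totals the mean ratio of 3.01 became 1.86, and with TMM factors 1.78.

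miR-146a-3p had 29.9, 35.2 and 40.6 RPM in the m6A libraries and 33.7, 16.5 and 21.5 RPM in the IgG libraries, and the groups overlapped. Its ratios were 0.885, 2.13 and 1.89, with a mean of 1.64 ± 0.662, against 1.02 without miR-6080 and 0.981 with TMM factors. By the study's rule for a methylated miRNA, a mean ratio of at least 2 and 100 RPM or more, applied here to all 3 m6A libraries, miR-146b-5p alone of the 3 arms passed, as did 11.8% of all miRNAs (258 of 2189). The study listed fewer, so the rule as applied here does not return its list exactly. A ratio of at least 2 in every cell line was found for both arms of MIR146B and for 28.0% of all miRNAs, and m6A libraries that all lay above the IgG libraries for the same 2 arms and for 45.9% of all miRNAs. Because these values chose the family, nothing is read from these counts.

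Before precipitation miR-146b-5p had 38.3, 112 and 87.3 RPM in the inputs of FTO1C1, FTO2D4 and FTO3C3, from 54, 163 and 131 reads. The order of the groups was therefore m6A, input, IgG, with no overlap between neighbours, and FTO1C1 was the lowest input by more than 2-fold. m6A to input ratios were 13.7, 3.38 and 6.59, or 7.89 ± 5.28 on average (log2 fold change 2.73, standard error 0.45). The spread rests largely on the input of FTO1C1, without which the mean was 4.99. It was 11.02 without miR-6080 in the totals and 2.75 with TMM factors. In the whole table the median log2 fold change of m6A to input was 1.65, and 77.5% of the 2174 tested miRNAs had a lower value than miR-146b-5p.

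The 3p arms differed less from their inputs. miR-146b-3p had 22.0, 21.9 and 14.7 RPM in the inputs and m6A to input ratios of 1.12, 1.14 and 2.07. miR-146a-3p had 24.8, 23.3 and 26.0 RPM in the inputs and ratios of 1.20, 1.51 and 1.56. For both, the m6A libraries all lay above the inputs, but their mean ratios of 1.44 and 1.43 were below the median ratio of 3.47 of all miRNAs, and with TMM factors they were 0.477 and 0.49. All 3 arms had m6A libraries above all inputs, as did 67.9% of all miRNAs, and miR-146b-5p alone was at least 2-fold higher in every cell line, as were 50.2%.

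In the IgG libraries miR-146b-5p was scarcer than in the input, with IgG to input ratios of 0.0704 (counting interval 0.00831 to 0.267), 0.0455 (0.0123 to 0.119) and 0.0614 (0.00154 to 0.348). The mean of 0.0591 ± 0.0126 stood against a median of 1.62 for all miRNAs, with 5.62% of them lower, and it was 0.128 without miR-6080 and 0.0406 with TMM factors. Within the RIP-seq libraries the large ratio of m6A to IgG is thus made up of a higher level than in the input and of a low IgG level. The scrambled siRNA libraries of the knockdown experiment, which were not precipitated, had a mean of 743 RPM. That is above the mean of 493 RPM in the m6A libraries. miR-146b-3p had IgG to input ratios of 0.49, 0.29 and 0.732, and miR-146a-3p of 1.36, 0.709 and 0.825. Their means of 0.504 and 0.964 turned to 1.07 and 2.09 with totals that leave out miR-6080, so that no direction can be given for the 3p arms. IgG libraries that all lay below the inputs were found for both arms of MIR146B and for 22.5% of all miRNAs, and a level at least 2-fold lower in every cell line for miR-146b-5p and 15.7% of all miRNAs.

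**Figure D3:**
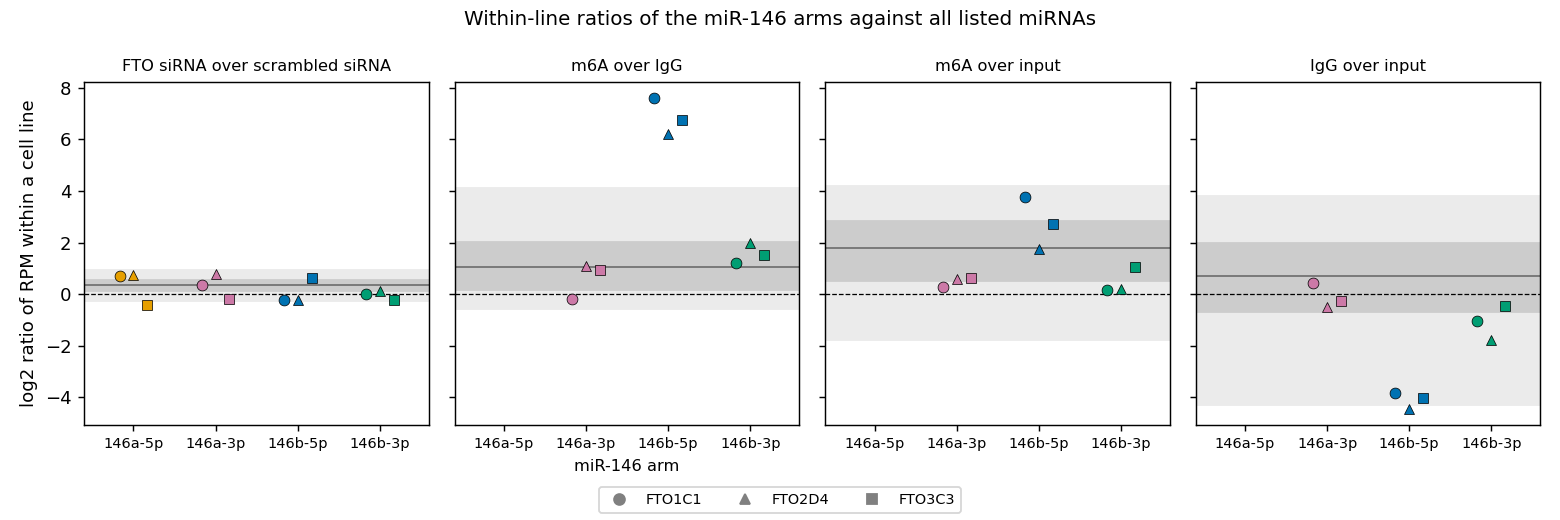
log2 ratios of RPM within each cell line for 4 contrasts, 1 point per cell line and arm, with the median (grey line), middle 50% (dark band) and middle 90% (light band) of the mean ratios of all listed miRNAs. The m6A over IgG points of miR-146b-5p, at ratios of 74.3 to 195, lie above the light band, those of the other arms lie within it. miR-146a-5p is shown for the knockdown alone.

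The change of the arm balance does not involve the totals. In the input 63.5%, 83.6% and 85.6% of the miR-146b reads were on the 5p arm (95% Wilson intervals 52.9% to 73.0%, 77.8% to 88.1% and 79.2% to 90.3%). In the m6A libraries, as a description, the shares were 95.5%, 93.8% and 94.99%, higher than the input in all 3 cell lines. These shares hold the miR-146b-5p counts that chose the family, so the difference was not tested. In the knockdown libraries, which were not precipitated, the shares were 95.4% to 97.8%. In the IgG libraries they were 20%, 44.4% and 33.3%, of 10, 9 and 3 reads. By contrast, miR-146a-3p gave 51.5% to 63.9% of the 3p reads of the family in the input and 54.8% to 58.5% in the m6A libraries, which overlap.

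Among 442 hairpins with both arms at a mean of 15 RPM or more, the 5p arm was the more enriched over IgG in 271, with a median log2 difference of 0.43 between the arms. That of miR-146b was 5.30, and 9 hairpins had a larger one. For m6A over input its difference was 2.29, against a median of 0.21, and 96 hairpins had a larger one. Both differences contain the m6A level of miR-146b-5p that chose the family, so nothing is read from these places. That over IgG also rests on 2, 4 and 1 IgG reads of miR-146b-5p. The 15 RPM limit was set on the mean with m6A libraries included, where miR-146b-3p had 26.6 RPM, against 9.29 in IgG and 19.5 in the input.

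The level before precipitation also set the 2 experiments apart. miR-146b-5p had 79.1 ± 37.3 RPM in the inputs but 743 ± 45.6 RPM with scrambled siRNA, whereas miR-146b-3p had 19.5 ± 4.22 and 28.4 ± 1.13 RPM and miR-146a-3p 24.7 ± 1.36 and 13.7 ± 7.94 RPM. These are levels from separately counted tables, and transfection, preparation and sequencing run cannot be told apart, so no test was made. They also differ in the share of miR-6080, which was 2.05% to 4.18% in the knockdown libraries.

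hsa-miR-7153-5p, which shares the seed and was looked at for that reason after the values of the members were known, had 172, 179 and 258 RPM in the m6A libraries, 5.39, 2.54 and 5.36 RPM in the IgG libraries and 19.2, 21.9 and 16.7 RPM in the inputs. The m6A libraries were the highest and the IgG libraries the lowest, as for miR-146b-5p. Of all miRNAs, 45.9% had m6A libraries all above the IgG libraries, 67.9% had them all above the inputs and 22.5% had IgG libraries all below the inputs. By mean m6A ratio miR-7153-5p ranked 35th of 2189 over IgG and 277th over the input. Its m6A to IgG ratios were 31.9, 70.4 and 48.1, from 4, 2 and 1 IgG reads, and its m6A to input ratios 8.98, 8.17 and 15.5. After FTO knockdown it had a log2 fold change of 0.37 with a standard error of 0.23 (edgeR, adjusted p = 0.32).

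The letters of the arms were searched for AAC or GAC, the core of the sequence in which m6A is known to occur, on the miRNA strand alone since miRNAs are single-stranded. Both 5p arms hold AAC within GAACU, which starts at base 4 and lies in the seed, and miR-146b-3p holds GAC within GGACU, which starts at base 8. miR-146a-3p holds neither. AAC or GAC occurred in 36.1% of the 2370 mature miRNAs, GAACU in 1.77% and GGACU in 3.08%. A match is no site, and the arms with a match differed widely, since miR-146b-5p with GAACU was at 125-fold over IgG and miR-146b-3p with GGACU at 3.01-fold. Of 1923 listed miRNAs with a sequence, 35 held GAACU, with a median m6A to IgG ratio of 2.10 against 2.02 for all 1923. The 72 with GGACU had a median of 2.72. The 35 include miR-146b-5p, whose enrichment chose the family, and miR-7153-5p, added after values were seen. The 72 include miR-146b-3p, so the values of these motif groups are descriptions. For m6A over input the medians were 4.599 with GAACU and 5.06 with GGACU, against 3.49 for all 1923, and 65.7% and 65.3% were at least 2-fold higher in every cell line, against 50.3%. For m6A over IgG these shares were 31.4% and 37.5%, against 27.6%. The 753 with AAC or GAC had a median of 2.20 over IgG, with 30.8% at least 2-fold higher in every cell line. Over the input they had a median of 4.03, with 56.0% at least 2-fold higher. miR-146b-5p also holds more adenosines (7 of 23 bases) and less G and C (43.5%) than miR-146b-3p (2 of 22 bases and 59.1%), whereas miR-146a-3p holds 5 adenosines and 40.9% G and C.

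The pathway was represented by 12 other miRNAs that are known to respond to NF-kB or Toll-like receptor signalling, a list made with earlier results of these data known. After FTO knockdown 1 of the 12 was called by edgeR, beside the 5.48% of all miRNAs, and 3 had an unadjusted p under 0.05, beside 621 of all 2374, so that both counts were near the background. The list had a median log2 fold change of 0.03, against 0.29 for all tested miRNAs. The one called was let-7i-5p, which targets TLR4 (0.74 on the log2 scale with a standard error of 0.17, edgeR adjusted p = 0.0348). The most abundant, miR-21-5p, had -0.43 (standard error 0.15, adjusted p = 0.12 by edgeR), miR-9-5p, which targets NFKB1, -0.55 (standard error 0.15, adjusted p = 0.0656 by edgeR) and let-7e-5p -0.05. In the RIP-seq libraries 5 of the 12 were at least 2-fold higher in m6A than in IgG in every cell line, beside the 28.0% of all miRNAs. For m6A over input only 2 of the 12 were, beside 50.2% of all miRNAs. The median log2 fold change of the list was -0.81 there, against 1.65 for all tested miRNAs. For m6A over IgG, let-7e-5p and miR-223-3p had the largest mean ratios of the list, 20.7 ± 4.93 and 43.2 ± 23.0, both below that of miR-146b-5p. The most abundant of the list in these libraries, miR-212-3p, was lower in m6A than in IgG in every cell line. Its ratios were 0.383, 0.805 and 0.221, and miR-21-5p had a mean ratio of 2.50 ± 0.264.

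The miRNAs with the most similar profile were sought by Pearson correlation of log2(RPM + 1) with the members, as a description over libraries that share their groups and totals. Over the 9 RIP-seq libraries and 1885 miRNAs of at least 15 RPM on average, the nearest to miR-146b-5p were miR-4709-3p (r = 0.994), miR-4750-5p (0.991), miR-5688 (0.989), miR-485-5p (0.988) and miR-4517 (0.988), while its own 3p arm came 134th (0.89). miR-146b-3p was nearest to miR-5707 (0.97), miR-3920 (0.962), miR-548ba (0.958), miR-580-3p (0.954) and miR-219a-5p (0.954). miR-146a-3p was nearest to miR-3928-5p (0.948), miR-4425 (0.945), miR-5585-3p (0.924), miR-620 (0.898) and miR-3918 (0.896), and reached 0.579 with miR-146b-5p. Over the 6 knockdown libraries and 1305 miRNAs, miR-146b-5p was nearest to miR-1247-3p (0.948), miR-6780a-5p (0.938), miR-505-3p (0.903), miR-296-3p (0.9) and miR-8064 (0.887). In the same libraries miR-146b-3p was nearest to miR-598-3p (0.981), miR-10a-3p (0.896), miR-339-5p (0.835), miR-449a (0.825) and miR-545-5p (0.822). Here the levels of the arms of MIR146B correlated at r = -0.966, with miR-146b-3p 1303rd of 1305 in likeness to miR-146b-5p. For miR-146b-3p this rests on 57 to 107 reads per library and a range of 24.8 to 29.6 RPM. Counting noise was not separated from it.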

How the data were processed

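The authors deposited whole-number counts of reads per mature miRNA, not normalized, in 1 table for the knockdown (2418 miRNAs) and 1 for RIP-seq (2189). As the Methods state, adapters were removed with cutadapt, reads were kept by length and matched by maximal exact matches to miRBase release 20. A version of cutadapt and a genome build are not given in the sources used here. No genome alignment is described, so the positions printed come from RefSeq and not from the reads, and RefSeq ends can differ from those of release 20.

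From the counts, RPM of the total miRNA reads and ratios within each cell line were computed, after the study. An IgG or input count of 0 was set to 3 reads, which touched no ratio of a member but can move its rank among all miRNAs. edgeR 4.0.16 (R 4.3.3) was fitted to each contrast separately, on the libraries of its own groups and not on the members alone. The steps were glmQLFit and glmQLFTest, with low counts removed by filterByExpr at its minimum of 10. Totals served as library sizes, the cell line as a block, and Benjamini-Hochberg was applied at 0.05. Standard errors were derived from the F statistic of edgeR. The test was checked on simulated data. DESeq2 1.42.0, scipy 1.17.1, numpy 2.4.6, pandas 2.3.3 and matplotlib 3.10.9 were used for the other steps. The cell line pairs the libraries, since those of 1 name come from the same derivative. Within a cell line, deviations from the group means correlated at 0.334, 0.225 and 0.294 for the knockdown, and for m6A with IgG at 0.0207, 0.0361 and 0.0386. They correlated at -0.0158, -0.0615 and -0.0782 for m6A with input, and at 0.0692, -0.0228 and 0.0260 for IgG with input. The pairing is thus visible in the knockdown libraries but hardly in those of RIP-seq. Libraries of a group differed by more than sampling noise (chi-square per degree of freedom 6.11 to 145). Separate cultures beyond the 3 derivatives are not described, so p-values measure the spread between these libraries.

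Members and lists were chosen with earlier results of these data known. Named were the family, miR-6080, a list of 12 miRNAs of the NF-kB pathway (values for at most 4 in each experiment), 7 immune markers, and the 5 nearest profiles of each member of at least 15 RPM on average. miR-7153-5p was added after values were seen, and miR-146a-3p was given the tests set for the other arms. Alternatives were TMM factors, DESeq2, no filter, no cell line block, totals without miR-6080, a geometric mean, a count of 0 set to 1 and each cell line left out.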

Additional observations from a re-analysis of the deposited data

Results flagged for a closer look

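Cell lines moved in opposite directions for 6 values of single arms, with 1 pair of libraries per line, so that none of these differences was tested. After FTO knockdown miR-146b-5p had ratios of 0.851 in FTO1C1 and 0.863 in FTO2D4 against 1.53 in FTO3C3. The other arms went the other way in FTO3C3, with 1.64 and 1.66 against 0.745 for miR-146a-5p, 1.28 and 1.71 against 0.867 for miR-146a-3p, and 1.01 and 1.08 against 0.865 for miR-146b-3p. For miR-146a-3p the m6A to IgG ratio was 0.885 in FTO1C1 but 2.13 and 1.89 in FTO2D4 and FTO3C3, and the IgG to input ratio was 1.36 in FTO1C1 but 0.709 and 0.825 in FTO2D4 and FTO3C3.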

How the results depend on the processing

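Low IgG counts (1 to 25 reads per member and library) limit the folds over IgG, and the total limits every RPM, since miR-6080 and TMM scaling shift all miRNAs of a contrast together. No member was called after FTO knockdown by edgeR under any alternative, nor miR-146b-5p by DESeq2, which gave no adjusted p for the others. After FTO knockdown log2 fold changes turned to -0.041 (miR-146a-5p), -0.0028 (miR-146a-3p) and -0.24 (miR-146b-5p) with TMM factors and to -0.24 (miR-146b-5p) with DESeq2. With each cell line left out they ran from -0.032 to 0.71 for miR-146a-5p, from 0.03 to 0.58 for miR-146a-3p, from -0.22 to 0.20 for miR-146b-5p and from -0.094 to 0.059 for miR-146b-3p. miRNAs called in the whole table numbered 130, 55 with TMM factors (21 higher and 34 lower, against 118 and 12) and 0 to 201 with each cell line left out, where the 0 is without FTO1C1 (327 at an unadjusted p under 0.05 by edgeR). DESeq2 called 91 (33 higher, 58 lower). Without the cell line as a replicate block 41 were called, and no member, with log2 fold changes of 0.24, 0.30, 0.10 and -0.03 for miR-146a-5p, miR-146a-3p, miR-146b-5p and miR-146b-3p. A replicate block (sign flips within pairs) left both share differences at p = 1.0 by exact permutation, where 0.25 is the smallest possible. Share differences ran from -0.746 to 0.473 percentage points (5p of miR-146b) and from -0.212 to 0.386 (miR-146a of the 5p reads) with each line left out. For m6A over IgG, TMM factors gave 0.981 (miR-146a-3p) and 1.78 (miR-146b-3p), and totals without miR-6080 1.86 (miR-146b-3p). For m6A over input, TMM factors gave 0.49 (miR-146a-3p) and 0.477 (miR-146b-3p), and totals without miR-6080 1.97 and 2.04. For IgG over input, totals without miR-6080 gave 2.09 (miR-146a-3p), 1.07 (miR-146b-3p) and 0.128 (miR-146b-5p), TMM factors 0.0406 (miR-146b-5p), and leaving out a line 0.767 to 1.09 (miR-146a-3p). The causes were not tested beyond the scaling itself. The other 84 values kept their direction and call or, where there was no test, moved by less than 1 SD, and counts of calls by less than 1.5 times.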
